A study of Mus musculus with 12 samples.

Results

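Transcripts of 10 secreted factors that act on blood vessels or their support cells were examined in C57MG cells, a mouse mammary cell line, after treatment with R-spondin 2 and Wnt3a. These were *Angpt1*, *Angpt2*, *Angptl2*, *Angptl4*, *Vegfa*, *Vegfb*, *Vegfc*, *Pgf*, *Edn1* and *Thbs1*. Every spot other than a control that carried 1 of these names in the scanner files was taken, which gave 27 spots of 18 probes among the 41174 distinct probes and 27962 gene names of the array. Cells were held for 24 h in plain DMEM with bovine serum albumin (BSA) as the carrier control, with 100 ng/ml recombinant human Rspo2, with 100 ng/ml recombinant mouse Wnt3a, or with both proteins at those doses. Each of the 4 groups had 3 monolayers and each monolayer its own array, so 12 arrays were compared. All groups share the parental line, the medium without serum and the 24 h time point. The monolayers are replicates of 1 cell line, so the errors given here measure the spread between wells of that line.

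Wnt3a is a lipid-modified ligand that binds Frizzled and Lrp receptors and stabilizes β-catenin, and R-spondins potentiate that signal by keeping Frizzled receptors at the cell surface. The angiopoietins are ligands of the endothelial receptor Tek (also called Tie2), and the members of the VEGF family act through the receptors Flt1, Kdr and Flt4. Fibroblasts, mammary epithelium and smooth muscle cells make many of these factors for the endothelial cells next to them, which carry most of the receptors.

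Values are background-subtracted intensities on the log2 scale relative to the 75th percentile of their array, called relative log2 signal here, and a difference of 1 on this scale is 2-fold. Detection required the well-above-background flag on every array of a group in 1 or more groups, and all 18 probes met this among 22751 detected probes. The flag was set on all 12 arrays for 17 of the 18 probes, and on 5 for the *Angptl4* probe. No member spot was saturated. The 75th percentile itself lay between 773.9 and 1146 intensity units, and arrays of the same group correlated at 0.989 to 0.996. A change passed the test at a limma p-value, adjusted by the Benjamini-Hochberg method over all detected probes, under 0.05, and it was called when it was also at least 2-fold. A gene with more than 1 probe is represented by its brightest, called probe 1.

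The labels describe the cells as mammary epithelial. Of 8 epithelial markers 4 were detected, among them the basal keratin *Krt14* on all 12 arrays, whereas *Cdh1* was well above background on no array and *Epcam* on 2. Of 8 mesenchymal markers 7 were detected on all 12 arrays, including *Vim*, *Col1a1* and *Acta2*. Of 10 endothelial markers *Cdh5* and *Eng* were detected. *Kdr* and *Emcn* were well above background on no array, *Pecam1* and *Tek* on 1, and *Vwf* on 2. Marker sums (log2 of the summed relative signals) differed between groups. The summed endothelial level lay between 1.60 and 1.69 with BSA and between 1.20 and 1.36 with both proteins. This difference lay in *Cdh5*, a junction protein, which fell by 0.55 on the log2 scale (adjusted p = 0.000259), while *Eng* gave 0.22 and did not pass. The epithelial sum went from between 3.35 and 3.42 to between 4.49 and 4.69, and the mesenchymal sum from between 8.65 and 8.67 to between 8.89 and 8.96. The bright *Acta2*, an actin of smooth muscle, rose by 0.78 (adjusted p = 7.26e-05), and the median change of the 7 detected mesenchymal markers was -0.19. The epithelial sum lay close to the level of *Krt14* alone. *Krt14* was called higher with both proteins, by 1.24 on the log2 scale, while *Krt8* (-1.15) and *Pdgfra* (-1.37) were called lower. With the slide of the array as a term, of these marker changes only that of *Pdgfra* passed (-1.32). The part of these shifts in the results on secreted factors was not tested. In RNA from a whole well, fewer cells of a type and less RNA per cell cannot be told apart.

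The arrays lay on 3 slides. The first held the 3 BSA arrays and Rspo2 replicate 1, the second the remaining Rspo2 arrays and Wnt3a replicates 1 and 2, and the third Wnt3a replicate 3 with the 3 arrays of both proteins. BSA shared no slide with Wnt3a or with both proteins, so those changes can be set within slides only through the chain of shared groups. A second fit had the slide as a term, and where a named gene passed only without that term this is said beside its result.

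With both proteins 1 of the 10 genes was called higher (*Edn1*) and 2 were called lower (*Angpt1* and *Angptl4*), where 1.28% of all detected probes were called higher and 3.79% lower. Without the 2-fold requirement 2 genes rose (*Edn1* and *Thbs1*), 4 fell (*Angpt1*, *Angpt2*, *Angptl4* and *Vegfa*) and 4 did not pass, beside 21.9% and 17.3% of all probes. Wnt3a alone gave 1 called rise (*Edn1*) and 2 called falls (*Angpt1* and *Angptl4*), with 0.404% and 2.11% of all probes called in those directions. Without the 2-fold requirement Wnt3a also raised *Angpt2*, so 2 genes rose and 2 fell, beside 18.3% and 13.2% of all probes. Rspo2 alone gave 1 called gene, *Angptl4*, which was lower, where 0.620% of probes were called lower and 0.101% higher. In all, 3 genes rose by less than 2-fold with Rspo2 (*Angpt2*, *Edn1* and *Pgf*), beside 10.9% of all probes that passed upwards, and 1 fell, beside 5.92%. *Angptl4* met the detection requirement only through its BSA arrays, where it was highest, so its falls enter these counts through that selection and give them no support. The members were also chosen with earlier results of these data known. The counts beside the shares of all probes are thus a description and no test of the list. Over the 9 genes above background on all arrays, 1 was called higher and 1 lower with both proteins and with Wnt3a. A fit of the 20436 probes above background on all arrays called 788 with both proteins and 285 with Wnt3a, in either direction. The median absolute log2 change of the 9 genes was 0.17 with Rspo2, 0.24 with Wnt3a and 0.34 with both. Over all detected probes, which include dimmer ones, it was 0.21, 0.25 and 0.27.

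**Figure D1:**
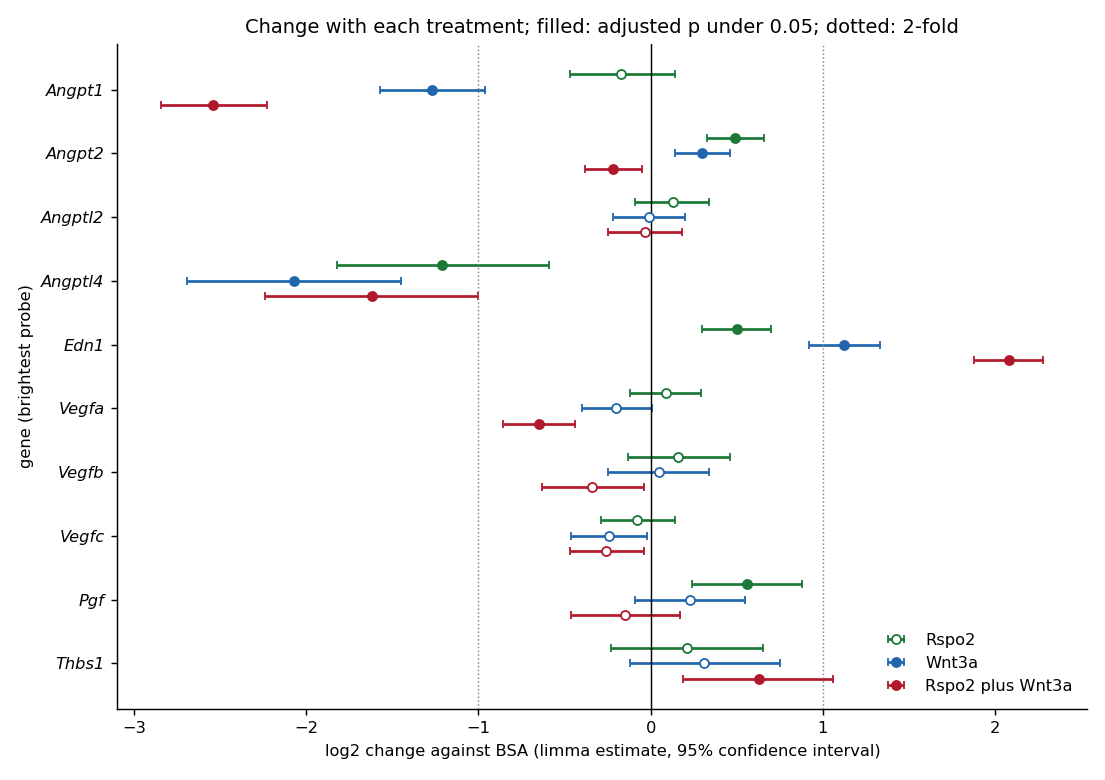
Log2 change against BSA of the brightest probe of each gene, as the limma estimate with its 95% confidence interval, for Rspo2, Wnt3a and both proteins. Filled points passed at an adjusted p under 0.05 and dotted lines mark 2-fold. *Edn1* at 2.08 and *Angpt1* at -2.54 with both proteins lie farthest from 0 on either side.

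*Angpt1*, the ligand that activates Tek and steadies vessel walls, fell with Wnt3a and fell further with both proteins. The relative log2 signal of probe 1 was -0.25, -0.48 and -0.39 on the BSA arrays. It was -0.40, -0.62 and -0.62 with Rspo2 and -1.61, -1.90 and -1.42 with Wnt3a. With both proteins it was -3.06, -2.70 and -2.99. The Wnt3a arrays lay below all BSA and Rspo2 arrays, and the arrays of both proteins lay below all others, while BSA and Rspo2 overlapped. For Rspo2 the limma log2 change was -0.17 (SE 0.14, adjusted p = 0.411). Wnt3a lowered the signal 2.41-fold (log2 change -1.27, adjusted p = 0.000264), and the pair lowered it 5.81-fold (-2.54, adjusted p = 6.13e-07). Addition of Rspo2 to Wnt3a lowered it by a further 2.41-fold (log2 change -1.27, adjusted p = 0.000426). Probe 2 lies 69.3 kb nearer the 5′ end of the gene on the coordinates of the scanner files, and it gave -0.09, -1.21 and -2.85 for the same treatments. With the slide as a term the change with both proteins was -2.65 and passed, and that with Wnt3a was -1.16 and did not pass (-1.10 on probe 2, which did not pass either). On the third slide the arrays of both proteins read lower than the Wnt3a array, by a log2 difference of -1.49.

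*Angpt2*, which binds the same receptor and opposes *Angpt1* in many settings, rose with either protein alone and not with the pair. Its relative log2 signal was 0.46, 0.40 and 0.40 with BSA and 0.81, 0.97 and 0.95 with Rspo2. It was 0.71, 0.80 and 0.64 with Wnt3a and 0.13, 0.24 and 0.24 with both. No array of any group overlapped another group, and the order from low to high was both proteins, BSA, Wnt3a and Rspo2. The change with Rspo2 was 0.49 (SE 0.07, adjusted p = 0.00667), 1.41-fold, and with Wnt3a 0.30 (adjusted p = 0.0119), 1.23-fold. With both proteins it was -0.22 against BSA (adjusted p = 0.0404) and -0.52 against Wnt3a (adjusted p = 0.00275). The small difference from BSA did not pass in 8 of the 12 fits that left out 1 array (each BSA array, each array of both proteins, Rspo2 replicate 2 and Wnt3a replicate 1), with values from -0.23 to -0.18, and it was 0 when arrays were scaled to the median of all probes, where the median change of all detected probes was 0.26. With the slide as a term the changes with Rspo2 (0.40), with Wnt3a (0.19) and with both (-0.25) did not pass, nor did that of both against Wnt3a (-0.44, adjusted p = 0.077).

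**Figure D2:**
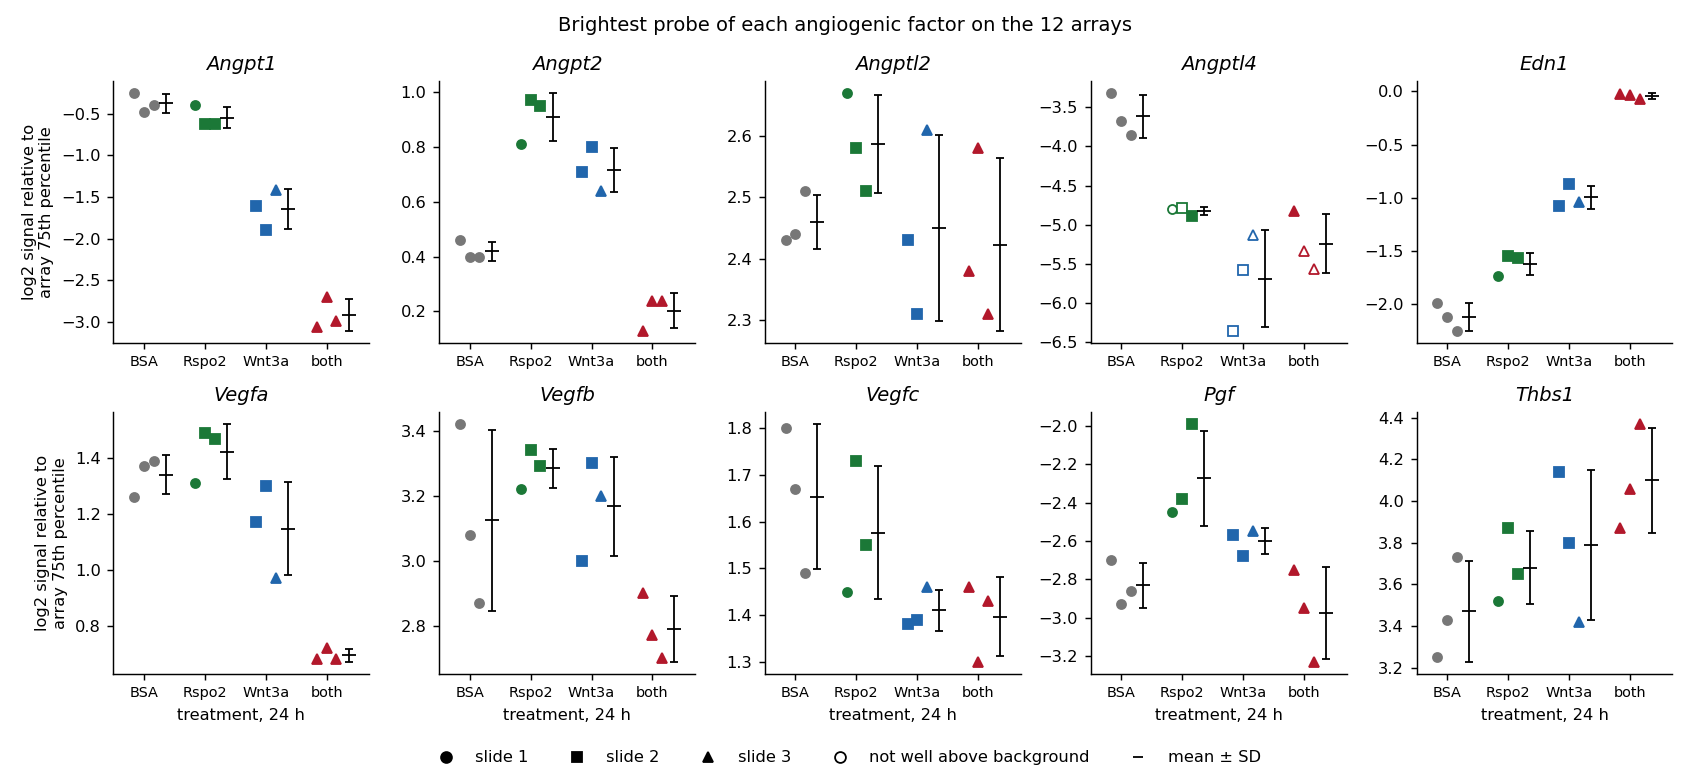
Relative log2 signal of the brightest probe of each of the 10 genes on the 12 arrays, with the treatment on the horizontal axis, 1 point per array, the slide as the symbol and the mean ± SD beside each group (n = 3). Open points were not well above background, which occurred only for *Angptl4*. *Angpt1* reached -3.06 and *Edn1* -0.02 with both proteins, apart from every BSA array, and the ranges of the vertical axes differ between panels.

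The angiopoietin-like proteins share the fold of the angiopoietins and do not bind Tek. *Angptl4*, a secreted inhibitor of lipoprotein lipase, was called lower with each treatment, near the limit of detection. Its relative log2 signal was -3.32, -3.68 and -3.86 with BSA, at intensities of 74.4 to 95.4. It was -4.80, -4.79 and -4.89 with Rspo2, -6.35, -5.58 and -5.13 with Wnt3a, and -4.83, -5.33 and -5.57 with both. Every treated array lay below every BSA array. The BSA arrays were all well above background, as against 1 array with Rspo2, none with Wnt3a and 1 with both. The probe was tested only because its BSA arrays met the detection requirement. That selection favors a fall, so the flags, the separation from BSA and the p-values below give the falls no independent support. Rspo2 gave a log2 change of -1.21 (adjusted p = 0.0227), both proteins one of -1.62 (adjusted p = 0.00131) and Wnt3a one of -2.07 (adjusted p = 0.000887). With Rspo2 and with both proteins 2 of the 3 arrays were not well above background, so these fitted changes rest in part on signal at background. Since no Wnt3a array was above background, the Wnt3a change was also estimated with dim signals raised to the detection limit, which gave 3.2-fold lower. This estimate sets the mean of the BSA arrays against the lowest signal well above background on each Wnt3a array. Where the probe's own signal was higher, that was used. The estimate has no error attached and is not a lower bound. The 95% interval of the fitted Wnt3a change was -2.69 to -1.45. The call with Rspo2 was lost in 5 of 12 fits that left out 1 array (each BSA array, and Rspo2 replicates 2 and 3), at values from -1.33 to -1.05. None of the 3 changes passed with the slide as a term (-1.18, -2.30 and -2.41 for Rspo2, Wnt3a and both), or after another background correction of the mean signal (normexp), which gave 0.30, -0.70 and -0.91.

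*Angptl2*, a related factor made by fat and stromal cells, gave different readings on its 3 probes. Only probe 1 carries a RefSeq accession, while probes 2 and 3 are tied to the gene by the name given on the array. Probe 1 read between 2.31 and 2.67 over all 12 arrays, its changes lay between -0.03 and 0.13, and none passed. The 95% interval of the change with both proteins on probe 1 was -0.25 to 0.18. Probe 2 did not pass in any comparison either. Probe 3 lies 16.6 kb on the 5′ side of the most 3′ probe and fell with Rspo2 (-0.35, adjusted p = 0.0234), Wnt3a (-0.26, adjusted p = 0.0352) and both (-0.59, adjusted p = 0.000379). Its BSA arrays read -1.41, -1.40 and -1.34 and its arrays of both proteins -1.96, -1.96 and -2.01. The fall on probe 3 did not pass with the slide as a term (-0.26, -0.05 and -0.25 in the same order).

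*Vegfa*, the main growth factor for endothelial cells, fell with both proteins on 2 of its 3 probes. The relative log2 signal of probe 1 was 1.26, 1.37 and 1.39 with BSA, 1.31, 1.49 and 1.47 with Rspo2, and 1.17, 1.30 and 0.97 with Wnt3a. With both proteins it was 0.68, 0.72 and 0.68, below all 9 other arrays. The change was -0.65 with both (SE 0.09, adjusted p = 0.000457), 1.57-fold lower, as against 0.09 with Rspo2 and -0.20 with Wnt3a, which did not pass. Probe 2 is printed as 10 spots on each array, whose SD on the log2 scale was between 0.036 and 0.074. It gave the same direction with both proteins (-0.64, adjusted p = 0.000514) and also fell with Wnt3a (-0.44, adjusted p = 0.00619). Probe 3, the most 5′ of the set, gave -0.29 with both (adjusted p = 0.0672). With the slide as a term the change with both was -0.55 on probe 1 and did not pass, and -1.0 on probe 2 and passed. The fall of probe 2 with Wnt3a was -0.60 with that term and did not pass (adjusted p = 0.106).

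The table of RefSeq promoters used here (GRCm38.p6) gives windows from 250 bases before to 50 after the annotated start, and 8 windows of 6 of the 10 genes were read from it. Windows of *Angpt1*, *Angpt2*, *Angptl4* and *Thbs1* were not analysed here. The window of *Vegfa* at its outer start, chr17:46032328-46032627 on the minus strand, is shown because *Vegfa* fell with both proteins. Capitals mark matches to the motifs searched on both strands, which in this window are GC box cores (GGGCGG).

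Vegfa promoter: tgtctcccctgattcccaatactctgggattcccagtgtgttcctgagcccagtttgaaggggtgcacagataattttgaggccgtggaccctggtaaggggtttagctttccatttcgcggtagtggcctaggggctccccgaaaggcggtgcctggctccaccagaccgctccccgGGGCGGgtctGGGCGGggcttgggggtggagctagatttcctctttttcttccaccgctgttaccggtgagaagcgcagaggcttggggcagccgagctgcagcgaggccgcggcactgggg

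The 2 GC box cores begin 72 and 62 bases before the start. The letters of this core were in 6 of the 8 member windows and in 35.7% of all 32851 windows in the table. The core of the hypoxia response element (ACGTG) was in 2 of the 8, the windows of *Edn1* and of a second *Vegfa* start, and in 19.6% of all windows. The TCF/LEF core (CTTTGA) and the AP-1 motif (TGANTCA) were in none of the 8 and in 16% and 7.81% of all. No motif overlapped another kind. A match is a run of letters and not a bound site, and the absence of one says only that these letters are not within the window.

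The other VEGF family members moved by less than 2-fold. *Vegfb*, a ligand of Flt1, read between 2.70 and 3.42 on probe 1 over all arrays, and its change with both proteins was -0.34 (95% interval -0.63 to -0.04, adjusted p = 0.0664). Probe 2 of *Vegfb* lies 285 bases to the 5′ side. It rose with Rspo2 by 0.30 (adjusted p = 0.0497), which became 0.11 with the slide as a term and did not pass (adjusted p = 0.57), and its change with both was -0.20 (adjusted p = 0.115). *Vegfc*, the ligand of Flt4 that drives lymphatic growth, read 1.80, 1.67 and 1.49 with BSA and 1.46, 1.30 and 1.43 with both proteins. The groups did not overlap, but the change of -0.26 had an adjusted p of 0.0627, and that with Wnt3a (-0.24) one of 0.088.

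*Pgf*, placental growth factor, another ligand of Flt1, rose with Rspo2 alone. Its relative log2 signal was -2.70, -2.93 and -2.86 with BSA, -2.45, -2.38 and -1.99 with Rspo2, -2.57, -2.68 and -2.55 with Wnt3a, and -2.75, -2.95 and -3.23 with both. The Rspo2 arrays lay above all others, and the arrays of both proteins overlapped BSA. The change with Rspo2 was 0.56 (SE 0.14, adjusted p = 0.0294), 1.47-fold. It did not pass in 5 of the 12 fits that left out 1 array (each BSA array, and Rspo2 replicates 2 and 3), at values from 0.42 to 0.62, nor with the slide as a term (0.38). Neither the Wnt3a change (0.23, adjusted p = 0.246) nor that of the pair (-0.15, adjusted p = 0.454) passed.

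**Figure D3:**
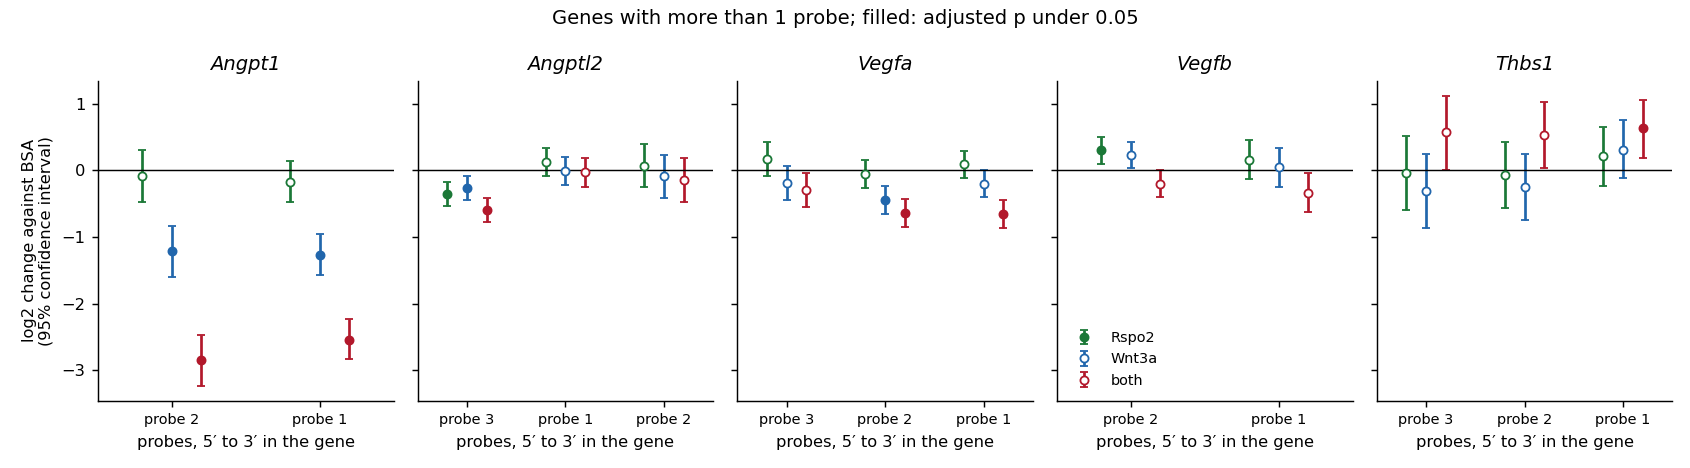
Log2 change against BSA with its 95% confidence interval for each probe of the 5 genes that have more than 1, with probes ordered from the 5′ to the 3′ end of the gene and filled points at an adjusted p under 0.05. Both *Angpt1* probes fell with Wnt3a and with both proteins (-2.54 and -2.85 with both), whereas for *Angptl2* only probe 3 passed.

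*Edn1* encodes endothelin 1, a vasoconstrictor peptide that is cut from its precursor by the enzymes Ece1 and Ece2. It was the member with a called rise. Its promoter window at chr13:42301226-42301525 on the plus strand is shown for that reason, with the single motif match in capitals, the hypoxia response element core on the opposite strand, which begins 21 bases after the annotated start.

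Edn1 promoter: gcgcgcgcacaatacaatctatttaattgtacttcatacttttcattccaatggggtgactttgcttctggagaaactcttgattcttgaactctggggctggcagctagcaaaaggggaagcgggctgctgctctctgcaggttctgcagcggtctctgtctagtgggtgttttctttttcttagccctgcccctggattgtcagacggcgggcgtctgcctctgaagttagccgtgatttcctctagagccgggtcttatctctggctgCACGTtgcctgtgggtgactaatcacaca

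The relative log2 signal of *Edn1* was -1.99, -2.12 and -2.25 with BSA and -1.74, -1.55 and -1.57 with Rspo2. It was -1.08, -0.87 and -1.04 with Wnt3a and -0.02, -0.03 and -0.07 with both. The groups rose in the order BSA, Rspo2, Wnt3a and both, and no array of a group overlapped the next. Rspo2 raised it by 0.50 (1.41-fold, adjusted p = 0.0132) and Wnt3a by 1.12 (2.18-fold, adjusted p = 5.3e-05). With both the rise was 2.08 (SE 0.09, 4.22-fold, adjusted p = 1.84e-07). Rspo2 added to Wnt3a raised it 1.94-fold (0.95, adjusted p = 0.00019), or 1.02 on the log2 scale without Wnt3a replicate 2. Without Rspo2 replicate 3 the change with Rspo2 was 0.47 and did not pass. With the slide as a term the change with both was 1.96 and passed, that with Wnt3a was 0.96, which passed below 2-fold, and that with Rspo2 was 0.37 and did not pass.

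*Thbs1*, thrombospondin 1, a matrix protein that inhibits vessel growth, rose with both proteins on probe 1. Its relative log2 signal was 3.25, 3.43 and 3.73 with BSA, 3.52, 3.87 and 3.65 with Rspo2, 4.14, 3.80 and 3.42 with Wnt3a, and 3.87, 4.06 and 4.37 with both. The arrays of both proteins lay above BSA and overlapped those of Wnt3a. The change was 0.63 (95% interval 0.19 to 1.06, adjusted p = 0.0278), 1.54-fold. It did not pass without BSA replicate 1 or 2 or without replicate 2 or 3 of both proteins (0.49 to 0.64), nor with the slide as a term (0.94). Probes 2 and 3 gave 0.53 and 0.57 with both (adjusted p = 0.0867 and 0.098). With Wnt3a alone probe 1 gave 0.31 and probes 2 and 3 gave -0.25 and -0.31, none of which passed.

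The design also asks whether Rspo2 acted differently when Wnt3a was present. The interaction is the change from Wnt3a to both proteins less the change from BSA to Rspo2, and 0 means that the log2 effects add. It was called for 3 of the 10 genes, *Angpt1* and *Angpt2* downwards and *Angptl4*, near background, upwards, while 0.651% of all detected probes were called downwards and 1.27% upwards. At an adjusted p under 0.05 alone 4 genes passed downwards and 1 upwards, beside 5.31% and 3.58% of all probes. The upward gene was *Angptl4*, detected only through BSA, which is a group of this contrast. Over the 9 genes above background on all arrays 2 were called downwards and 0 upwards. A fit of the 20436 probes above background on all arrays called 247 in either direction. In the comparison of both proteins with Wnt3a, 1 gene was called (*Angpt1*, lower), where 0.334% of probes were called lower and 0.413% higher, and 1 gene rose and 3 fell without the 2-fold requirement, beside 1.78% and 2.49%.

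For *Angpt2* the effect of Rspo2 had opposite signs in the 2 settings, 0.49 without Wnt3a and -0.52 with it, and the interaction was -1.01 (95% interval -1.24 to -0.78, adjusted p = 0.00073). It passed with the slide as a term too, at -0.84, and in all 12 fits that left out 1 array, where it lay between -1.05 and -0.97 and so on either side of 2-fold. For *Angpt1* the effect of Rspo2 was -0.17 without and -1.27 with Wnt3a, and the interaction was -1.10 (adjusted p = 0.011) on probe 1 and -1.55 (adjusted p = 0.0066) on probe 2. The slide term gave -1.47 on probe 1, which passed, and -1.89 on probe 2, which did not (adjusted p = 0.0543). Without Wnt3a replicate 3 it was -0.99, just under 2-fold, and passed.

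For *Pgf* the effects were 0.56 and -0.38 (interaction -0.94, adjusted p = 0.0237). For *Vegfa* probe 1 they were 0.09 and -0.45 (interaction -0.54, adjusted p = 0.0349), with -0.15 and -0.27 on probes 2 and 3, which did not pass. *Vegfb* probe 2 gave an interaction of -0.72 (adjusted p = 0.0119) and probe 1 one of -0.55 (adjusted p = 0.0882). None of these interactions passed with the slide as a term (-0.81 for *Pgf*, -0.24 for *Vegfa* probe 1 and -0.45 for *Vegfb* probe 2), nor did the effect on *Vegfa* probe 1 with Wnt3a present (-0.27). Of the 12 fits that left out 1 array, *Pgf* did not pass in 4 (BSA replicates 2 and 3, and replicates 2 and 3 of both proteins), at -0.95 to -0.81. *Vegfa* did not pass in 9 (every array but Rspo2 replicate 1, Wnt3a replicate 3 and replicate 1 of both proteins), at -0.56 to -0.46.

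For *Angptl4* the fitted interaction was 1.65 (adjusted p = 0.0323). No Wnt3a array was above background, so this is not a measured difference between the 2 effects of Rspo2, and its direction is not settled. It was -0.51 after normexp, 1.07 with the slide as a term (adjusted p = 0.318), and it was lost in 7 of 12 fits that left out 1 array (each BSA array, Rspo2 replicates 2 and 3, Wnt3a replicate 2 and replicate 2 of both proteins), at 1.5 to 1.77. The interaction of *Edn1* was 0.46 (95% interval 0.17 to 0.74, adjusted p = 0.0534) and did not pass. *Angptl2* (-0.15), *Vegfc* (0.06) and *Thbs1* (0.10) did not pass on probe 1.

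**Figure D4:**
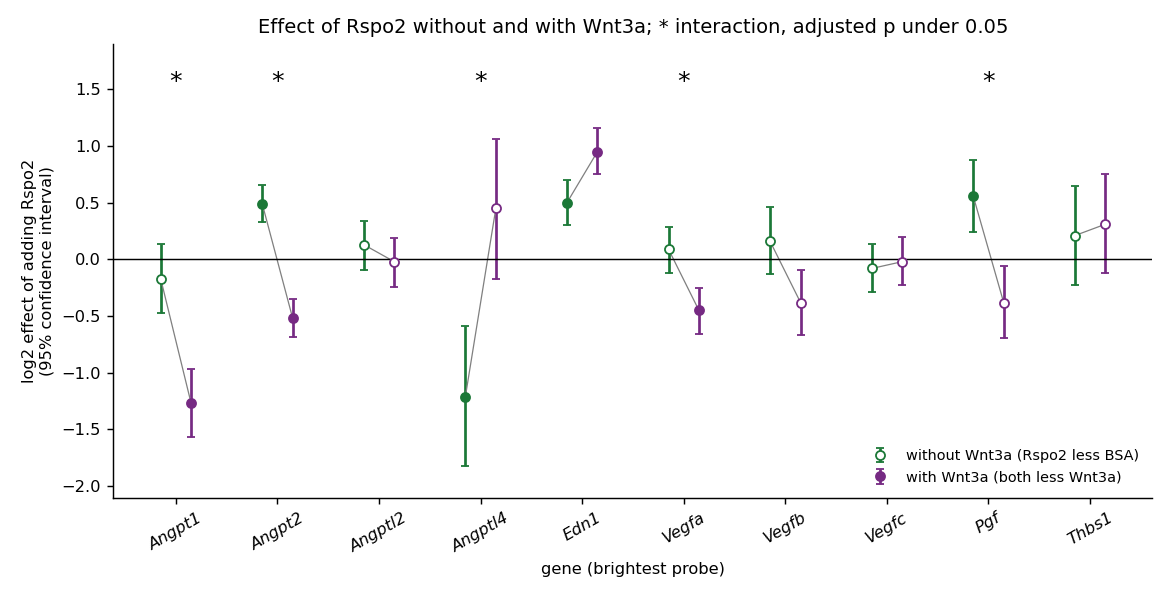
Log2 effect of adding Rspo2, with its 95% confidence interval, without Wnt3a (Rspo2 less BSA) and with Wnt3a (both less Wnt3a), for the brightest probe of each gene. Filled points passed at an adjusted p under 0.05, and an asterisk marks genes whose interaction passed, that of *Angptl4* with no Wnt3a array above background. *Angpt2* changes sign, from 0.49 to -0.52.

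Receptors of these factors were read in the same cells. Of 14 receptor genes 7 were detected, and *Kdr*, *Flt4* and *Ednra*, named after their values were seen, were well above background on no array. With both proteins 1 receptor rose and 3 fell, and both called genes fell, beside 21.9% of all detected probes that passed upwards, 17.3% downwards and 3.79% called lower. *Flt1*, the receptor for *Vegfa*, *Vegfb* and *Pgf*, had relative log2 signals of 1.58, 1.47 and 1.32 with BSA, 0.69, 0.78 and 0.61 with Wnt3a and -0.01, 0.07 and 0.08 with both. The groups did not overlap, and the change with both was -1.41 (adjusted p = 1.79e-06), with -1.10 and -1.46 on the other detected probes. *Itgb3*, the integrin subunit that pairs with Itgav, changed by -1.61 with both (adjusted p = 7.39e-07) on its brightest probe, while its other probe gave 0.16 and did not pass. The brightest probes gave -1.24 for *Flt1* and -1.30 for *Itgb3* with the slide as a term, and both passed.

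Of 17 further genes of secreted proteins that promote or inhibit vessel growth 11 were detected. With both proteins 4 rose, 3 fell and 4 did not pass, beside the same 21.9% and 17.3% of all probes. The 2 called genes were *Cxcl12* and *Hgf*, both lower, as were 3.79% of all probes. *Cxcl12*, a chemokine that recruits vascular progenitors, read 4.57, 4.32 and 4.33 with BSA, 4.05, 4.13 and 3.97 with Wnt3a and 3.08, 3.15 and 3.12 with both. Its change with both was -1.29 (adjusted p = 3.25e-06), and -1.09 on its second probe. *Hgf*, the ligand of the receptor Met, changed by -1.45 (adjusted p = 0.00084), from between -4.58 and -4.04 with BSA to between -6.42 and -5.43. Of its 4 probes 1 was detected. That probe was well above background on 11 arrays, 2 of them with both proteins, so the size of the fall rests in part on signal near background. *Cxcl12* passed with the slide as a term (-1.30) and *Hgf* did not (-1.28, adjusted p = 0.342). The median change of the 11 detected genes with both proteins was -0.06 and that of all detected probes 0.04. Of 6 processing enzymes and enzyme targets 5 were detected, and with both proteins 2 of these fell, each by less than 2-fold, beside 17.3% of all detected probes.

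**Figure D5:**
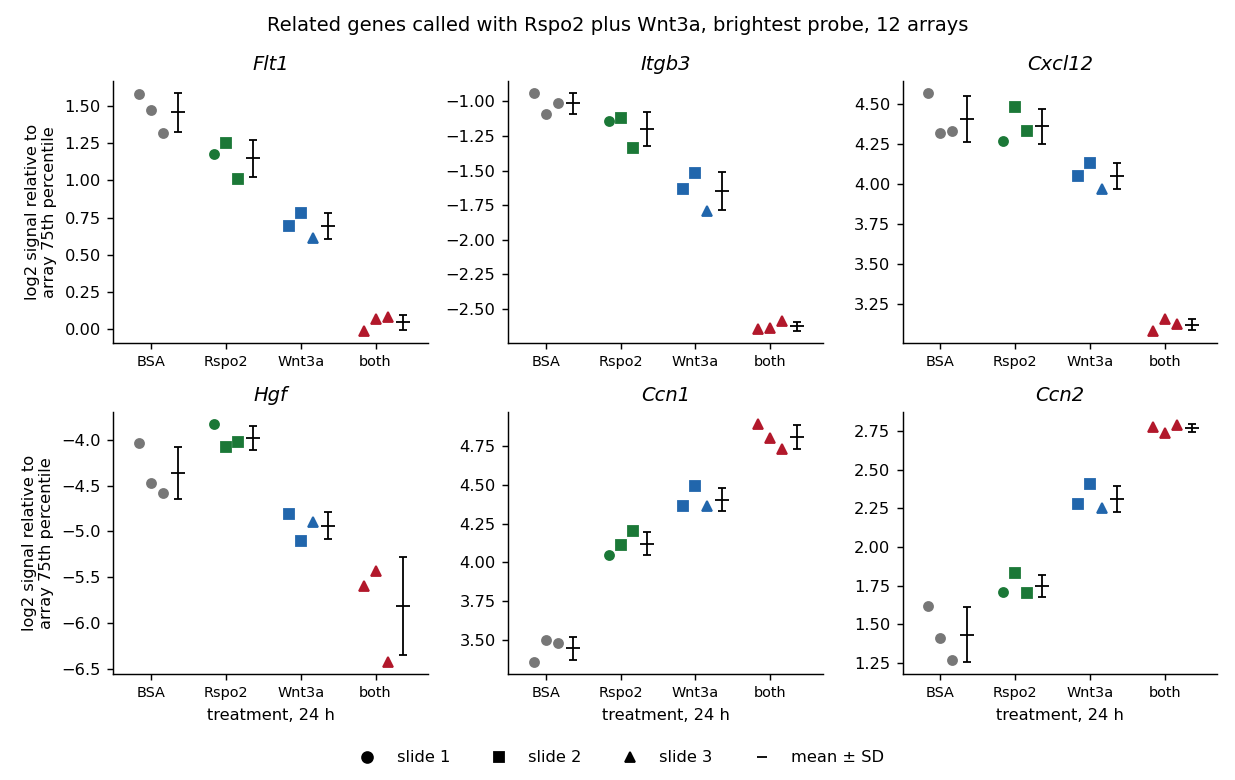
Relative log2 signal on the 12 arrays of 6 related genes called with both proteins (brightest probe), with the treatment on the horizontal axis, 1 point per array, the slide as the symbol and the mean ± SD (n = 3). *Flt1*, *Itgb3*, *Cxcl12* and *Hgf* are lower, and *Ccn1* and *Ccn2* higher, with both proteins than on any BSA array.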

How the data were processed

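The 12 samples were 3 monolayers for each of 4 treatments, RNA of each labeled with 1 dye and hybridized to an oligonucleotide array. The authors made the intensity values with Agilent Feature Extraction 9.5.3.1, which subtracts background; the deposited scanner files are not scaled between arrays. The authors also deposited a table of ratios of each signal to the 75th percentile of its array, used here as an alternative. Of 520548 spot values outside controls 1327 marked as uneven or as outliers were left out (3 of member probes, all of *Vegfa* probe 2), spots of a probe were averaged, and log2 values were reduced by the log2 of each array's 75th percentile. For a probe with several spots, at least 0.5 of these had to be well above background.

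Comparisons used limma 3.58.1 (R 4.3.3) in 1 fit of all 12 arrays (prior degrees of freedom 2.74). All p-values are limma p-values adjusted over 22751 detected probes. An exact permutation test of 3 arrays against 3 cannot give a p under 0.1 and was not used. The fit was tested on simulated data. The number of arrays and the signal over background limit the precision. Probe distances use the coordinates in the scanner files, whose genome build is not named there. Files name the genes, and no further probe mapped to a member by accession. Promoters came from the RefSeq table.

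Named genes were all members, list genes called against BSA, any gene of the marker lists and, for the 3 called members with the largest changes with both proteins, the 3 genes of highest correlation. The members, lists and tests were chosen with earlier results of these data known. The alternatives were other background corrections, scalings, filters and tests, the mean of a gene's probes, the slide as a fixed or random term, the replicate number as a block, and the leaving out of each array. Same-numbered arrays of different groups had residual correlations between -0.41 and 0.27. These were not set beside differently numbered arrays, so they cannot decide whether the numbers pair samples. The main fit treats the arrays as unpaired. Figures were made with matplotlib 3.10.9.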

Additional observations from a re-analysis of the deposited data

Results flagged for a closer look

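The test of the interaction in limma passed for 7 probes of 6 genes. The fitted difference in the effect of Rspo2 (with Wnt3a less without it, log2 scale) was -1.10 and -1.55 for probes 1 and 2 of *Angpt1*. It was -1.01 for *Angpt2*, -0.94 for *Pgf*, -0.54 for *Vegfa* probe 1 and -0.72 for *Vegfb* probe 2. For *Angptl4* it was 1.65. With no Wnt3a array above background, the *Angptl4* value is not a measured difference, and its direction is not settled. Of the 7 probes, *Angpt1* probe 1 and *Angpt2* also passed with the slide as a term. Groups of 3 arrays were too small to test for a single array that stands apart.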

How the results depend on the processing

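Of the 10 genes the number called was 3 with both proteins, 3 with Wnt3a, 1 with Rspo2, 1 for both against Wnt3a and 3 for the interaction. Over all 22751 detected probes the numbers called were 1155, 573, 164, 170 and 438 in the same order. Without the 2-fold requirement the count of the 10 genes was 6 with both, 4 with Rspo2, 4 for both against Wnt3a and 5 for the interaction. Over all detected probes it was 8916, 3817, 971 and 2024 in that order. With normexp background correction the count of the 10 genes was 1 with Wnt3a, and 0 with Rspo2, for both against Wnt3a and for the interaction. Calls over all detected probes fell as well, to 35 with Wnt3a, 3 with Rspo2, 15 for both against Wnt3a and 3 for the interaction. With the methods' t-test and adjusted p-values the count of the 10 genes was 1 with Wnt3a, 0 with Rspo2, 0 for both against Wnt3a and 1 for the interaction. That test called 165, 2, 11 and 65 of all detected probes in the same order. With the slide as a fixed term the count of the 10 genes was 0 with Wnt3a, 0 with Rspo2, 2 for both against Wnt3a and 1 for the interaction. With the slide as a random block (correlation 0.14) it was 1 for the interaction. Over all detected probes the fixed term gave 146, 65, 162 and 151 calls in that order, and the random block 273 for the interaction. With no filter on dim probes it was 0 with Rspo2 and 1 for the interaction, with the filter for all 12 arrays 0 with Rspo2, with the value table of the authors 0 with Rspo2, and with the 75th percentile over probes above background on all arrays 1 for the interaction. With the replicate number as a block the count of the 10 genes was 0 with Rspo2 (*Angptl4* -1.21, adjusted p = 0.0583, where the alternatives ranged from 0.014 to 0.838), and the interaction of *Angptl4* was not called either. That block called 120 of all detected probes with Rspo2 and 324 for the interaction. When 1 array was left out the count of the 10 genes ranged from 0 to 1 with Rspo2, from 1 to 2 for both against Wnt3a and from 1.0 to 4.0 for the interaction. The calls of *Angpt1* and *Edn1* with both proteins were made under all 28 alternatives.

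Values of single genes that changed sign were as follows. With scaling to the median of all probes, under which the median change of all detected probes was 0.18, 0.33 and 0.26 with Rspo2, Wnt3a and both (0.01, 0 and 0.04 otherwise) and -0.28 for the interaction, *Angpt2* was 0, *Angptl2* 0.18 and *Pgf* 0.07 with both, *Vegfc* 0.09 with Rspo2, *Angptl2* 0.32, *Vegfa* 0.13 and *Vegfc* 0.09 with Wnt3a, and the interaction -0.17 for *Thbs1* and -0.21 for *Vegfc*. With normexp, under which the median of all detected probes was 0.15 with Rspo2 and -0.16 for the interaction, *Angptl2* was 0.01 with both, -0.17 with Rspo2, 0.13 for both against Wnt3a and 0.30 for the interaction, *Angptl4* was 0.30 with Rspo2, -0.21 for both against Wnt3a and -0.51 for the interaction, and *Angpt1* was 0.01 with Rspo2. With quantile normalization *Pgf* was 0.05 with both, *Angptl2* 0.02 for the interaction and -0.02 with Rspo2, and *Vegfb* -0.02 with Rspo2 and -0.18 with Wnt3a. With the slide as a fixed term *Angptl4* was -0.11 for both against Wnt3a, *Vegfa* -0.03 with Rspo2, and *Angptl2* 0.03, *Pgf* -0.06 and *Vegfb* -0.07 with Wnt3a. With the mean of a gene's probes *Angptl2* was -0.05 with Rspo2 and *Thbs1* -0.08 with Wnt3a. With the 75th percentile over bright probes *Vegfa* was -0.01 with Rspo2 and *Vegfb* -0.08 with Wnt3a, and with the slide as a random block *Angptl2* was 0.01 with Wnt3a. When 1 array was left out, *Angptl2* ranged from -0.11 to 0.02 with both, -0.10 to 0.06 for both against Wnt3a and -0.09 to 0.06 with Wnt3a, *Vegfb* from -0.08 to 0.20 with Wnt3a, *Vegfc* from -0.05 to 0.03 for both against Wnt3a and -0.01 to 0.14 for the interaction, and *Thbs1* from -0.08 to 0.28 for the interaction. Apart from *Angptl4* with Rspo2 and for the interaction, both under normexp, no called value changed sign. The causes were not tested.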

Other observations

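Further lists were read beside the factors. Like the members and the other lists, they were chosen with earlier results of these data known, so their counts are descriptions only. Among 6 genes that respond to TGF-beta or YAP signaling, 5 rose with both proteins, 5 with Wnt3a and 2 with Rspo2, and none fell, beside 21.9%, 18.3% and 10.9% of all detected probes that passed upwards. The median change of the 6 with both proteins was 0.74, and that of all detected probes 0.04. The 2 called genes were *Ccn1* and *Ccn2*, matrix-associated proteins that bind integrins and have activity on endothelial cells. *Ccn1* read 3.36, 3.50 and 3.48 with BSA, 4.05, 4.11 and 4.20 with Rspo2, 4.36, 4.49 and 4.36 with Wnt3a and 4.89, 4.80 and 4.73 with both, with no overlap between groups (change with both 1.36, adjusted p = 9.24e-07). *Ccn2* changed by 1.34 (adjusted p = 3.52e-06).

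Of 9 detected hypoxia response genes 1 rose and 2 fell with both proteins, each by less than 2-fold, beside 21.9% and 17.3% of all detected probes. Their median change was 0.02, and that of all detected probes 0.04. Of 7 detected PPAR genes and targets, among which *Angptl4* is usually counted, 1 rose and 1 fell with both, beside 21.9% and 17.3% of all detected probes. *Ppard* was called lower with Wnt3a, but it was well above background on 1 BSA array and on no Wnt3a array, so no change is given.

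The genes whose signal over the 12 arrays was most like that of 3 members were taken from 9713 named genes well above background on all arrays, with Pearson's r as a description. They were *Ptger4* (0.992), *Gbp9* (0.988) and *Sphk1* (0.984) for *Angpt1*, *Helt* (0.994), *Gadd45g* (0.993) and *Rdh5* (0.992) for *Edn1*, and *Casp4* (0.973), *Slfn9* (0.959) and *Mark4* (0.956) for *Angptl4*. The arrays fall into 4 treatment groups, so these values mostly follow the 4 group means. *Angptl4* itself was well above background on 5 of the 12 arrays, so its correlations rest in part on background signal.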
